A study of Mus musculus with 4 samples.

Results

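The genes described here encode the AP-1 subunits Fos, Fosb, Fosl2, Jun, Junb and Jund, the zinc-finger factor Egr1, and the immediate early products Ier2, Ier3 and Zfp36. They were chosen by name, and 10 of 22180 named genes on the array belong to the group, measured by 11 of 41345 probe sets. Jund had 2 probe sets, averaged on the log2 scale, and every other member had 1. Expression was measured in primary hepatocytes, liver parenchymal cells put into culture, from 2-month-old male mice that were Chrebp-KO (KO) or wild type (WT). The cells spent 16 h in medium without serum, and the groups were KO with 25 mM fructose, KO without fructose (control), WT with 25 mM fructose and WT without fructose (control). Each group was measured on 1 array, so no value below has a replicate spread, no test was possible, and every fold is a difference between 2 arrays. The labels do not say how the Chrebp allele was made, from how many mice the cells came or whether cells were pooled.

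AP-1 is a dimer of basic leucine zipper proteins. FOS proteins need a JUN partner to bind DNA, whereas JUN proteins can also pair with each other. Several genes of these factors, with Egr1, Ier2, Ier3 and Zfp36, are immediate early genes. Growth factors, cytokines and stress switch such genes on through MAP kinases without new protein synthesis, usually for a short time. In liver, Jun is known for its part in hepatocyte survival and regeneration, Egr1 for injury and regeneration responses, and Zfp36 (tristetraprolin) for binding AU-rich elements in cytokine mRNAs and speeding their decay.

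The stretches before the transcription starts of Zfp36, Jun and Fos are shown because these members had the largest fructose differences in both genotypes. Each is the 250 bases before the RefSeq start in GRCm38.p6, 5′ to 3′ on the gene's strand. Capitals mark matches to the motifs searched, in the orientation in which they were found.
Zfp36 (chr7:28379229-28379478, minus strand): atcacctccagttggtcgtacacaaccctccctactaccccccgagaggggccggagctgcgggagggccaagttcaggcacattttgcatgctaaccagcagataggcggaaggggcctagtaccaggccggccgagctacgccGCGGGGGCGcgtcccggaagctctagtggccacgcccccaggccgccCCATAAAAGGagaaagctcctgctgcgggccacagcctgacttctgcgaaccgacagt
Jun (chr4:95052223-95052472, minus strand): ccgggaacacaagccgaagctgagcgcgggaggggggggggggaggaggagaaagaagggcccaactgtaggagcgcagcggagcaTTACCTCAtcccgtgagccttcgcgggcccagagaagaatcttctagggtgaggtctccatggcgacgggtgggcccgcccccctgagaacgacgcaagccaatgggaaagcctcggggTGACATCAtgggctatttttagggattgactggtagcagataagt
Fos (chr12:85473640-85473889, plus strand): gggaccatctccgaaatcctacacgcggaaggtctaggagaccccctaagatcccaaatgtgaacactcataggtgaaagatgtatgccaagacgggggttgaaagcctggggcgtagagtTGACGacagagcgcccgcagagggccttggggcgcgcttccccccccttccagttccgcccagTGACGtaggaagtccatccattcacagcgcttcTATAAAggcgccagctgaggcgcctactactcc

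Both strands were searched for 9 motifs. In Zfp36 an EGR site (GCGNGGGCG) began 105 bases before the start and an SRF CArG box began 58 bases before it. In Jun the jun2-type site TTACCTCA began 164 bases and the jun1-type site TGACATCA 45 bases before the start, both of them forms of the element that JUN and ATF dimers bind. In Fos the CRE core TGACG began 129 and again 66 bases before the start, and a TATA box (TATAAA) began 33 bases before it. These matches describe letters and not occupied sites. Of 32851 promoter windows of the same length, 4.70% held the EGR site, 1.47% the CArG box, 0.728% TTACCTCA, 2.93% TGACATCA, 17.8% TGACG and 12.4% TATAAA.

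RefSeq promoter entries were matched by symbol for 8 members, and Egr1 and Ier2 were not analysed for sequence. Fosb and Fosl2 each held an EGR site as well, and Fosb and Junb held TGACG. The windows with an EGR site were rich in G and C, with 64.8% in Zfp36, 68.8% in Fosb and 64.4% in Fosl2. The median over all windows was 52.4%, and the shares of windows given for the motifs were not matched for G and C content. The full CRE (TGACGTCA, which contains TGACG and was in 1.55% of windows), the AP-1 site (TGANTCA, 6.75%) and the E-box (CACGTG, the core of the sites that ChREBP binds, 6.02%) were not among the letters of the 8 windows. The windows of Ier3 and Jund held none of the 9 motifs.

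On each array 10368 to 10447 genes exceeded a background level of 4.76 (log2), which is the 95th percentile of 1105 olfactory receptor genes taken as silent. All 10 hepatocyte markers were above it on every array. Of 7 cholangiocyte markers, 5 were below it on every array, Krt7, Krt19 and Epcam among them, and Cldn3 and Sox9 were above it on all 4. Of 10 stellate cell markers, 6 were below it on every array, Lrat and Des among them, while Acta2, Dcn and Col1a1 were above it on all 4 and Reln on the fructose arrays. Mlxipl, which encodes ChREBP, read 7.37 in KO fructose, 7.42 in KO control, 8.43 in WT fructose and 8.08 in WT control cells. It was lower on the KO arrays and well above background on them, and the labels do not say whether the probe set lies in the deleted part.

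Fructose was accompanied by higher levels of the 9 members that lay above background, in both genotypes. Those 9 were above background on all 4 arrays, and Fosb was below it on all 4. The largest difference was that of Zfp36, 2.13-fold higher in KO and 3.21-fold in WT. It was the only member past 2-fold, 1 of 9 in each genotype, where 1.68% of 10752 genes in KO and 3.10% of 10814 in WT were at least 2-fold higher. At 1.5-fold, 3 of 9 members in KO and 5 of 9 in WT were higher, against 6.11% and 9.46% of all genes, and no member was lower at 1.5-fold (5.75% of genes in KO and 10.8% in WT) or at 2-fold (1.18% and 3.01%). The median log2 difference over the 9 was 0.41 in KO and 0.64 in WT, beside medians over all genes of -0.0041 in KO and -0.026 in WT. Of all genes, 5314 of 10752 in KO and 5138 of 10814 in WT lay above 0.

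**Figure D1:**
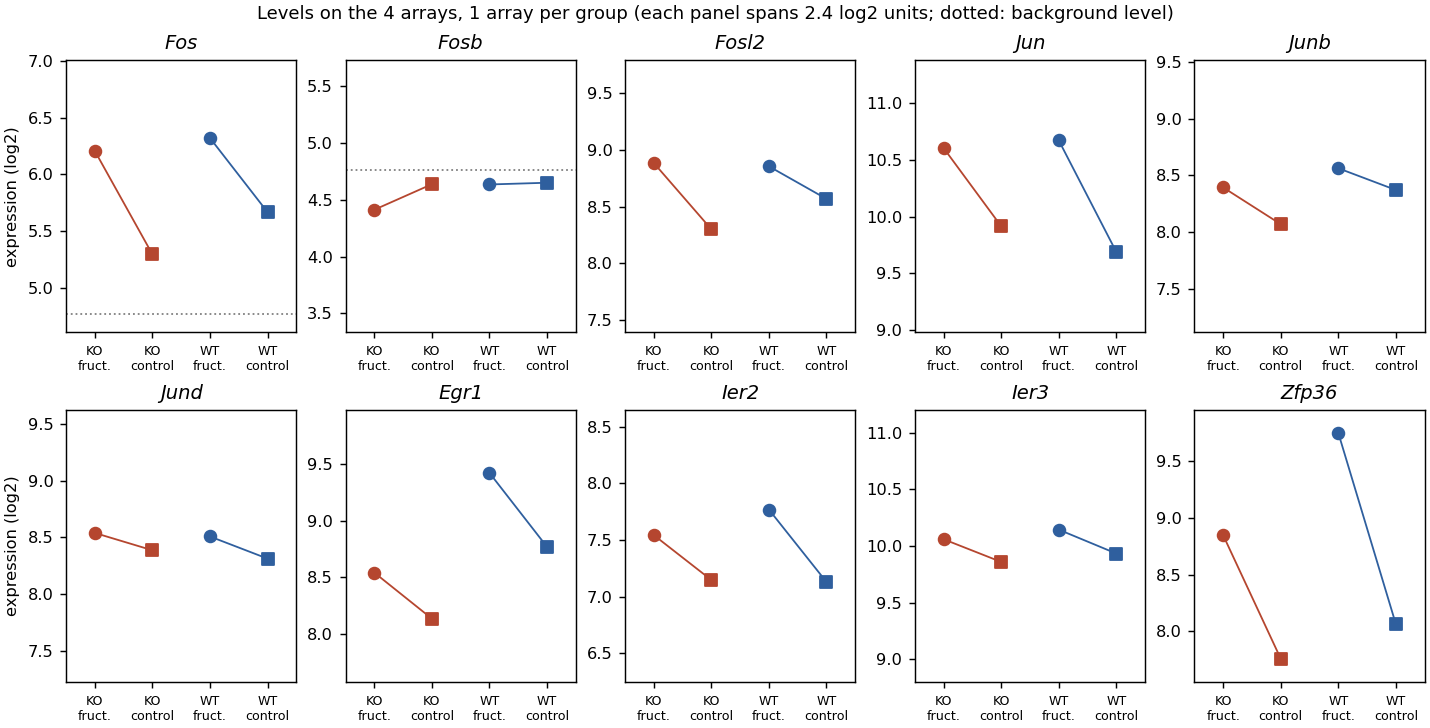
Expression (log2) of the 10 genes on the 4 arrays, 1 point per array, with circles for fructose, squares for control, red for KO and blue for WT. Each panel has its own axis of the same length, the dotted line is the background level, and 9 genes sit higher with fructose in both genotypes, with the steepest lines for Zfp36.

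Among the FOS family, Fos, the prototype of the immediate early transcription factors, had log2 levels of 6.20 in KO fructose and 5.29 in KO control cells. In WT it read 6.32 with fructose and 5.67 without. Both fructose arrays were above both control arrays, and the fructose arrays of the genotypes lay 0.12 apart. The difference was 0.91 in KO (1.88-fold) and 0.65 in WT (1.57-fold). In KO, 2.11% of all genes had a higher difference than Fos, and in WT 7.68%.

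Fosl2 (Fra-2), a FOS protein without the strong activating domain of Fos, read 8.88 in KO fructose and 8.30 in KO control cells. Its WT levels were 8.85 with fructose and 8.57 without. The fructose arrays were again the 2 highest and nearly equal, and KO control was the lowest. Fosl2 was higher with fructose by a log2 difference of 0.58 in KO, just under the 1.5-fold mark, and of 0.29 in WT. Fosb, a further dimer partner of JUN proteins, read 4.41, 4.64, 4.64 and 4.65 in KO fructose, KO control, WT fructose and WT control cells, so no difference is read from it.

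Jun, the main JUN subunit, stood at 10.60 in KO fructose and 9.91 in KO control cells. In WT it stood at 10.67 with fructose and 9.69 without. Both fructose arrays were above both control arrays by at least 0.69. Jun was 1.61-fold higher with fructose in KO and 1.98-fold in WT, and 4.12% of genes in KO and 3.18% in WT had a higher difference.

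Junb, a weaker activator that can oppose Jun on some promoters, read 8.39 in KO fructose, 8.07 in KO control, 8.56 in WT fructose and 8.37 in WT control cells. Its fructose differences were 0.32 in KO and 0.19 in WT. Jund, the JUN protein that many resting cells express steadily, read 8.54, 8.39, 8.51 and 8.31 on the same arrays and differed by 0.15 in KO and 0.20 in WT. Apart from Junb in KO, these sizes were close to the spread of the silent olfactory receptor genes, whose differences had an SD of 0.166 in KO and 0.191 in WT. The 2 Jund probe sets lay far apart, at 10.20 to 10.37 and at 6.40 to 6.80, so their average is the level of neither. In the same order, they gave fructose differences of 0.083 and 0.22 in KO and 0.14 and 0.25 in WT.

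**Figure D2:**
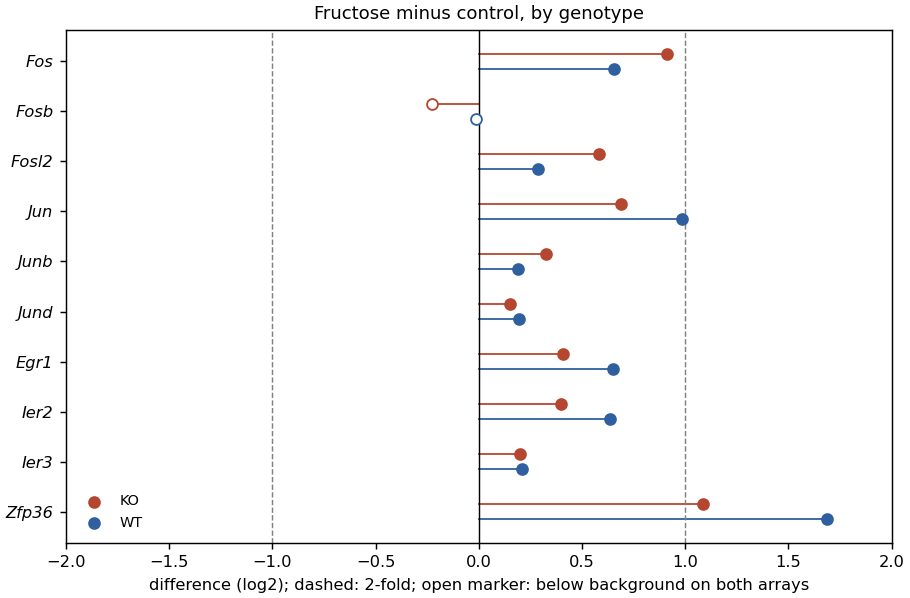
Log2 difference, fructose minus control, for the 10 genes in KO (red) and WT (blue), 1 array against 1 in each. Dashed lines mark 2-fold, which Zfp36 passes in both genotypes and Jun just misses in WT at 0.98, and open markers show Fosb, below background.

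Egr1, a zinc-finger factor that binds GC-rich sites, was lower in KO in both media. It read 8.54 in KO fructose and 8.14 in KO control cells, against 9.42 in WT fructose and 8.77 in WT control cells. Both KO arrays were below both WT arrays. With fructose it was 1.32-fold higher in KO and 1.57-fold in WT, where 12.3% and 7.72% of genes had a higher difference.

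Ier2, a nuclear protein induced by growth factors, read 7.54 in KO fructose and 7.15 in KO control cells. Its WT levels were 7.77 with fructose and 7.13 without, so the control arrays of the genotypes nearly coincided. The fructose difference was 0.40 in KO and 0.64 in WT. Ier3 (IEX-1), a stress-induced regulator of cell survival, read 10.06, 9.86, 10.14 and 9.93 in KO fructose, KO control, WT fructose and WT control cells. Its 4 values spanned 0.28, with fructose differences of 0.20 in KO and 0.21 in WT. These too were close to the SD of the silent genes, 0.166 in KO and 0.191 in WT.

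Zfp36 had the widest span of the members, 1.99. It read 8.85 in KO fructose and 7.76 in KO control cells, against 9.75 in WT fructose and 8.07 in WT control cells. The order was KO control, WT control, KO fructose and WT fructose from low to high, and each step was larger than 0.24, the largest SD of the silent genes in any comparison. Only Zfp36 had 3 such steps. With fructose, 1.34% of genes in KO and 0.842% in WT had a higher difference than Zfp36.

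Egr1 and Zfp36 were the members with lower levels in KO by at least 1.5-fold in fructose medium, 2 of 9, where 2.86% of 10688 genes were that much lower. Zfp36 was 1.87-fold and Egr1 1.84-fold lower in KO, and 95 and 108 genes had a lower difference. The other 7 members above background differed by between -0.23 and 0.03, with Ier2 at -0.23, Junb at -0.17, Fos at -0.12, Ier3 at -0.085, Jun at -0.068, Fosl2 at 0.029 and Jund at 0.031. No member was at least 2-fold lower, against 0.739% of all genes, or 2-fold higher, against 0.543%, and none was 1.5-fold higher, against 2.45%. The median was -0.12, beside 0.015 over all genes.

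In control medium Egr1 was 1.55-fold lower in KO, 1 of 9 members at 1.5-fold, where 1.10% of 10720 genes were that much lower and 99 genes lay below Egr1. Fos differed by -0.37, Zfp36 by -0.31, Junb by -0.30, Fosl2 by -0.27 and Ier3 by -0.074. Jun went the other way with 0.23, Jund differed by 0.073 and Ier2 by 0.017. The median was -0.27, beside -0.0077 over all genes. It was -0.17 both with no filter on dim genes and with a stricter one. In control medium 0 of 9 members reached 2-fold in either direction (0.0373% of all genes were higher and 0.196% lower), nor was any 1.5-fold higher (0.476%). The 2 probe sets of Jund had opposite signs, -0.030 and 0.18 in control and -0.088 and 0.15 in fructose medium.

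**Figure D3:**
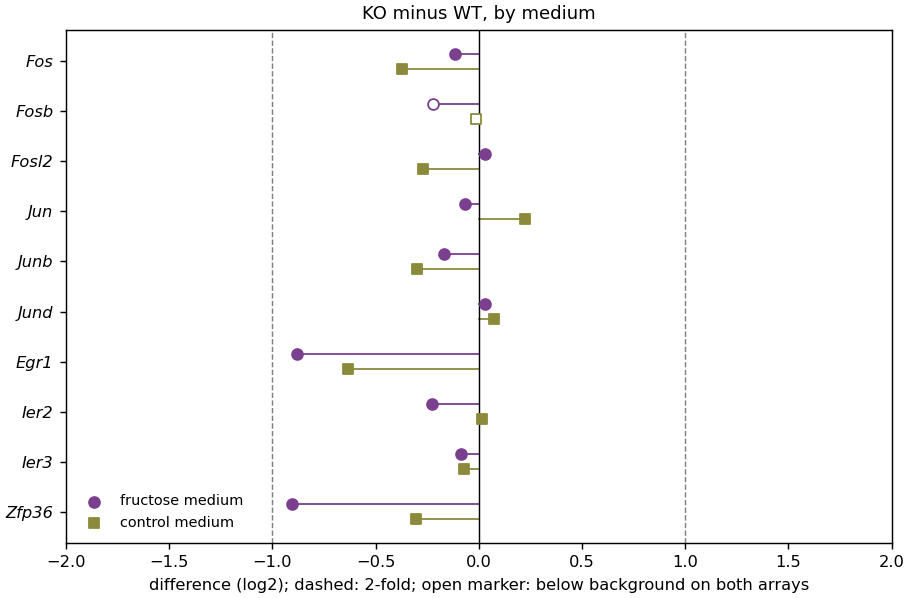
Log2 difference, KO minus WT, for the 10 genes in fructose medium (circles) and control medium (squares), 1 array against 1 in each. Egr1 lies furthest left in control medium, Egr1 and Zfp36 lie furthest left in fructose medium, and open markers show Fosb, below background.

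Most markers of macrophages, which also express Egr1 and Zfp36, were lower on the KO arrays. Of 14 macrophage markers, 10 of the 11 above background were lower in KO in fructose medium (median -0.56) and 9 of 10 in control medium (median -0.53). Cd68 was higher in KO, by 0.44 in fructose and 0.080 in control medium, and Adgre1 passed the background in WT fructose cells only. This fixed the sign of Adgre1 in both comparisons that use that array. Of all genes, 5080 of 10688 in fructose and 5575 of 10720 in control medium were lower, with medians of 0.015 and -0.0077. Vsig4, C1qc and Tyrobp were below background on all arrays. The linear levels of the 14 summed to 2908 in KO fructose, 2771 in KO control, 2578 in WT fructose and 2972 in WT control cells, a sum that Cd68 dominates. Of 12 endothelial markers, 8 of 9 above background were lower in KO in fructose medium (median -0.31) and 9 of 9 in control medium (median -0.46), with Stab2, Clec4g and Tek below background throughout. Their sums were 737 in KO fructose, 767 in KO control, 946 in WT fructose and 1066 in WT control cells. From such markers fewer cells of a type and less RNA per cell cannot be told apart, and the part of these markers in the Egr1 and Zfp36 values was not tested. With fructose, macrophage markers had medians of 0.092 in KO and 0.21 in WT, and 7 of 10 in KO and 8 of 11 in WT were higher. Of all genes, 5314 of 10752 in KO and 5138 of 10814 in WT were. Cd5l went the other way, by -0.78 in KO and -0.91 in WT, as did C1qb, by -0.44 and -0.68.

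The fructose difference of Zfp36 was smaller in KO than in WT by 0.60 on the log2 scale, the only member past 1.5-fold in that direction, against 2.60% of 11050 genes. None was past 1.5-fold in the other direction (2.86%) or at 2-fold in either (0.443% of genes larger in KO and 0.588% smaller). The same quantity, KO effect minus WT effect, was -0.29 for Jun, -0.25 for Egr1 and -0.24 for Ier2. It was 0.30 for Fosl2, 0.26 for Fos and 0.13 for Junb, and lay at -0.043 for Jund and -0.011 for Ier3. The silent genes had an SD of 0.24 here, and apart from Zfp36 the members lay within 0.30 of equal effects.

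Of 10 measured genes of other AP-1 type basic leucine zipper proteins, 7 were above background in each fructose comparison, and all 7 were higher with fructose. The sets differed, since Batf2 counted in KO only and Batf in WT only. Each of these passed the background on its fructose array alone, which fixed its sign. Their medians were 0.43 in KO and 0.73 in WT. Atf3, a stress-induced repressor that pairs with JUN proteins, was the member past 2-fold, 4.88-fold higher in KO and 7.20-fold in WT. The small MAF genes Maff, Mafg and Mafk, whose proteins lack an activating domain, differed by 0.49, 0.43 and 0.53 in KO and by 0.73, 0.77 and 0.77 in WT.

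Of the other EGR genes, Egr2 was below background on all arrays. Egr3 read 4.91, 4.71, 4.85 and 4.77 and Egr4 5.04, 5.01, 5.27 and 4.95 in KO fructose, KO control, WT fructose and WT control cells. Both lay close to background, and no difference is read from them. Nab1 and Nab2, corepressors that bind EGR proteins, were lower with fructose, Nab1 by -0.26 in KO and -0.75 in WT and Nab2 by -0.31 in KO and -0.40 in WT.

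Of 29 other immediate early genes, 24 of 28 above background were higher with fructose in KO and 21 of 28 in WT. The medians, from values not raised to background, were 0.35 and 0.41. Klf2 in KO and Klf4 in both genotypes passed the background on the fructose array only, which fixed their sign. With values below background raised to it, 1 gene was at least 2-fold higher in each genotype, where 1.59% of all genes in KO and 2.90% in WT were. That gene was Per1, a clock gene that is also induced as an immediate early gene, which was 2.73-fold higher in KO and 2.70-fold in WT. Klf4, a Krüppel-like factor, was at least 1.35-fold higher in KO and at least 1.87-fold in WT, its control arrays lying below background. Nr4a2, an orphan nuclear receptor, was 2.13-fold lower in KO than in WT in fructose medium, the 1 gene of 28 at 2-fold (0.739% of all genes), with 4.88 in KO and 5.97 in WT.

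**Figure D4:**
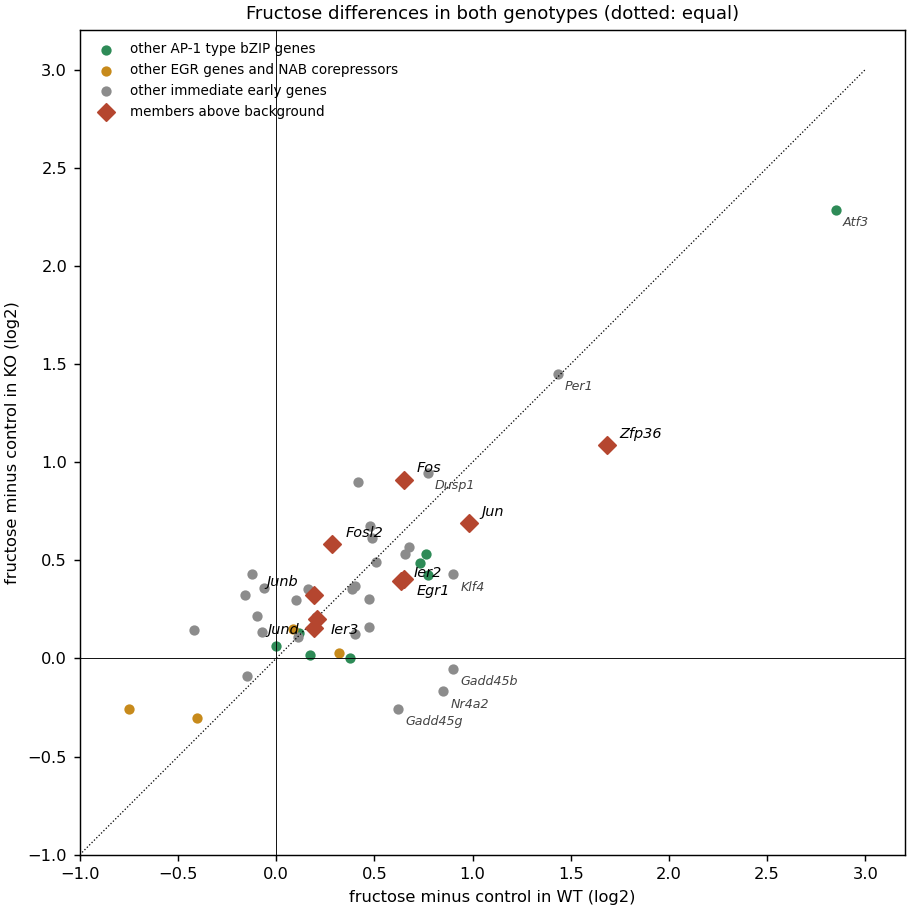
Fructose minus control (log2) in KO (vertical) against WT (horizontal) for the 9 members above background (red diamonds) and the genes of 3 related lists above background on at least 1 array, with values below background raised to it. Points below the dotted line had a larger difference in WT, as Zfp36 did with 1.09 in KO and 1.68 in WT, and Fos lies above it. Nr4a2, Gadd45b and Gadd45g lie below 0 in KO and above 0 in WT.

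Genes that AP-1 is known to activate showed no shared direction in WT. Of 16 listed, 13 were measured. In KO 7 of 8 above background were higher with fructose (median 0.47), and in WT 5 of 9 (median 0.022). Mmp9 in KO and Mmp13 in WT passed the background on the fructose array only, which fixed their sign. Timp1 in WT passed it on the control array only. With values below background raised to it, the medians were 0.42 in KO and 0.022 in WT. Hmox1, heme oxygenase 1, was the member past 2-fold, 2.63-fold higher in KO and 2.83-fold in WT. Cd44, the hyaluronan receptor, differed by 0.12 in KO and -0.58 in WT, and Plaur, the urokinase receptor, by 0.54 in KO and -0.18 in WT.

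Several mRNAs that ZFP36 is known to destabilise were high on the same arrays as Zfp36. Cxcl2, a neutrophil chemokine, read 6.00 in KO fructose and 4.28 in KO control, against 7.10 in WT fructose and 4.90 in WT control cells. Ccl3, a macrophage chemokine, read 6.40, 4.85, 7.24 and 5.49 on the same arrays. Both ran from KO control through WT control and KO fructose to WT fructose from low to high, the same order as Zfp36. Cxcl2 was at least 2.35-fold higher with fructose in KO and 4.59-fold in WT, and Ccl3 2.93-fold in KO and 3.35-fold in WT.

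Il23a, a cytokine subunit, read 6.05, 4.07, 9.13 and 3.76 in KO fructose, KO control, WT fructose and WT control cells. It was at least 2.43-fold higher with fructose in KO and at least 20.7-fold in WT. Il1b was above background in WT fructose cells only, at 5.33, at least 1.48-fold above WT control. Tnf, the best known target of ZFP36, differed with fructose by 0.66 in KO and -0.16 in WT, and Cxcl1 by -0.22 in KO and -0.041 in WT.

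Of the 13 listed targets, with values below background raised to it, 3 of the 8 above background in KO and 3 of 9 in WT were at least 2-fold higher with fructose, Il23a, Cxcl2 and Ccl3 in both (1.59% and 2.90% of all genes). Il6, Il10, Csf2 and Ptgs2 were below background on all arrays. Il23a and Il1b passed the background only where they were high, and so did Cxcl2 in KO. This fixed the sign of those fructose differences. Between the genotypes, and raised in the same way, 5 of 9 were at least 1.5-fold lower in KO in fructose medium (median -0.77), where 2.60% of all genes were. In control medium it was 4 of 7 (median -0.59), where 0.924% of all genes were. Il1b in fructose and Cxcl2 in control medium passed the background on the WT array only, which fixed their sign as lower in KO. Raised to background they differed by -0.56 and -0.13, so neither is among those past 1.5-fold, but both enter the totals and medians. Several of these targets are also macrophage products, and most macrophage and endothelial markers described above were lower in KO as well. The part of those markers in the values of the targets was not tested.

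**Figure D5:**
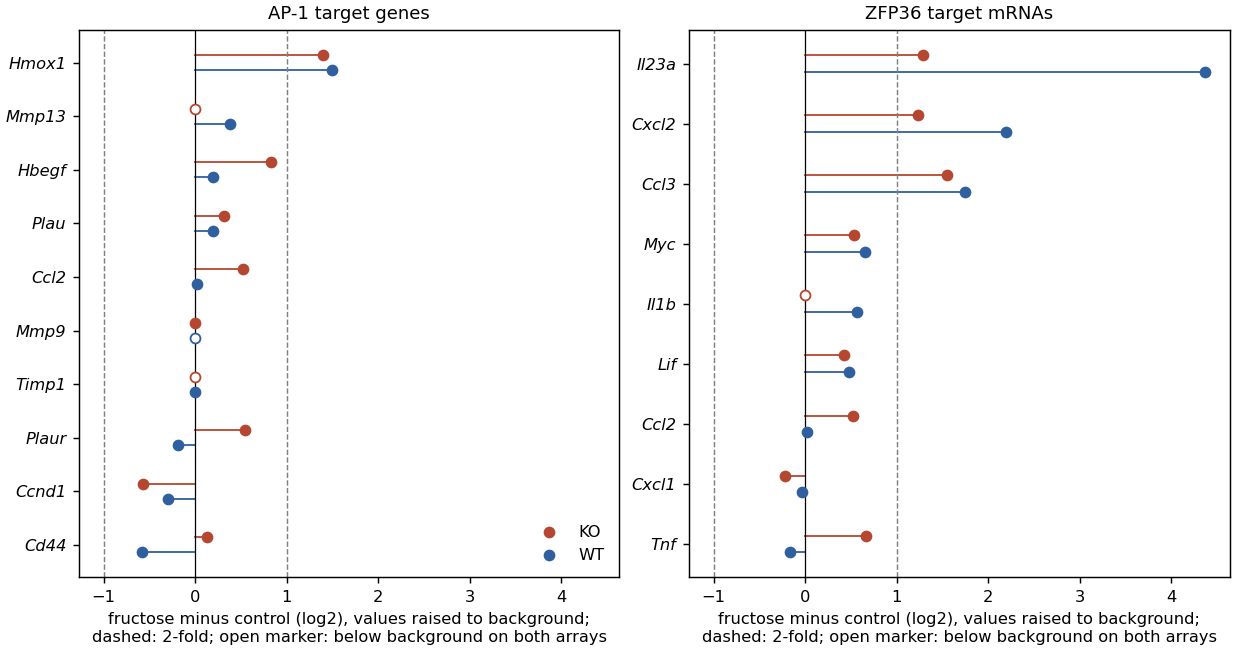
Fructose minus control (log2) in KO (red) and WT (blue) for known targets of AP-1 (left) and of ZFP36 (right) that were above background on at least 1 array, with values below background raised to it. Il23a lies furthest right in WT, at least 2.43-fold higher in KO and at least 20.7-fold in WT, dashed lines mark 2-fold, and open markers show pairs of arrays both below background.

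For the 3 members whose levels spanned at least 1 log2 unit, the most similar profiles were sought among 10210 genes, by the Euclidean distance between levels centred on their mean over the 4 arrays. For Zfp36 the nearest were Dnajb11, an endoplasmic reticulum co-chaperone (distance 0.12), Ccrl2, an atypical chemokine receptor (0.14), and Ccdc186 (0.21). Dnajb11 read 8.65, 7.69, 9.54 and 7.95 in KO fructose, KO control, WT fructose and WT control cells. For Fos they were Apaf1, a core component of the apoptosome (0.051), Arhgap11a (0.064) and Elf3, an epithelial ETS factor (0.080). For Egr1 they were Slc22a7, an organic anion transporter (0.098) whose KO levels, 4.72 with fructose and 4.27 without, were both below background, the cytokine gene Lif (0.14) and Srgn, the serglycin proteoglycan (0.16). With 4 arrays such likeness is a description of 4 values.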

How the data were processed

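RNA of 4 hepatocyte cultures was hybridised to 1 whole-transcript array each, from 400 ng per sample per the labels. The authors deposited 1 log2 value for each probe set, made with RMA and R 3.4.0, per the submitters' processing notes. RMA corrects background, equalises the arrays' distributions and summarises probes, so a shift shared by all genes cannot be seen. No source used here gives the array annotation version or a genome build. Probe sets with 1 gene in the platform table were used (23521, of which 23328 matched a GRCm38.p6 RefSeq table by Entrez number), probe sets with several genes (1814) or none (16010) were left out, and probe sets of a gene were averaged.

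Differences of log2 values were computed in Python 3.11.15 with pandas 2.3.3 for 5 comparisons. A gene entered a comparison when at least 1 of its arrays exceeded the background level, and a fold whose dimmer array lay below it is given as "at least", against that level. Values raised to background were used for counts and medians of the ZFP36 targets and for 2-fold fructose counts of other immediate early genes. A further pair of medians over the AP-1 targets used them too. These choices were made after seeing the data. With 1 array per group no test was made, genes were counted at 2-fold and 1.5-fold, and precision is limited by the number of arrays. The counting code was run on simulated data with changes larger than any member showed and the spread of the silent genes. That run does not measure how reliable the counts given here are. Members and lists were chosen with earlier results of these data known. Named genes are the members, Mlxipl, the 3 nearest profiles of members spanning at least 1 log2 unit, and list genes past 2-fold, up to 4 per list and comparison. Others were named after their values were seen. Of 162 list entries, 12 were not analysed here. The lists are 8 pathway lists and markers of hepatocytes, macrophages, endothelial cells, stellate cells and cholangiocytes.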

Additional observations from a re-analysis of the deposited data

Results flagged for a closer look

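The fructose difference of Nr4a2 had opposite signs in the genotypes, -0.17 in KO and 0.85 in WT, so the KO effect minus the WT effect was -1.02. The KO minus WT difference of Atf3 had opposite signs in the media, -0.33 in fructose and 0.23 in control medium, a change of -0.56. The genes of the 8 pathway lists and the members were searched, and 4 more list genes met the same criterion. Gadd45g differed with fructose by -0.26 in KO and 0.62 in WT, a KO effect minus WT effect of -0.88. Creb1 differed with fructose by 0.25 in KO and -0.30 in WT, and KO minus WT by 0.38 in fructose and -0.17 in control medium, a change of 0.55 in both. Rhob differed KO minus WT by 0.25 in fructose and -0.30 in control medium, a change of 0.55, and Elk3 by 0.26 and -0.20, a change of 0.47. Each was picked out because both signed differences exceeded the SD of the silent olfactory receptor genes in that comparison. Each rests on 4 arrays with 1 per group, and no difference was tested. No member met this criterion.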

How the results depend on the processing

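No paired analysis was possible because each group had 1 array and replicate numbers pair nothing. For the same reason no array could be left out. The 9 alternatives were a loess correction (span 0.3), centring on the median, a second quantile normalization, no filter or a stricter one on dim genes, a threshold of 1.5-fold or of 3-fold, use of a gene's brightest probe set, and values raised to background. Of 90 counts of members under alternatives, 83 stayed within 1.5 times the main count. The main counts were 0 except for members higher with fructose, 1 in each genotype, so most of the 83 were counts of 0 that stayed 0. Filters on dim genes and raising to background could move few counts, as 9 members were above background on all 4 arrays. Use of the brightest probe set could change Jund only. With the loess correction, 2 members were at least 2-fold higher with fructose in WT, since Jun moved to 1.02 beside Zfp36. The 1.5-fold threshold gave 3 members higher with fructose in KO and 5 in WT, 2 lower in KO in fructose medium, 1 lower in KO in control medium and 1 with a smaller fructose effect in KO. The 3-fold threshold left 0 members higher with fructose in KO. The 35 member medians kept their sign and moved by at most 0.18. Of 250 values of single members, 4 changed sign, among Jund and Ier3 differences under 0.1 in size, and raising values to background set Fosb to 0. The member medians ranged from 0.39 to 0.41 for fructose in KO and from 0.46 to 0.66 in WT. For KO minus WT they ranged from -0.14 to -0.10 in fructose and from -0.28 to -0.17 in control medium, the last value both with no filter and with the stricter one, and for the difference of fructose effects from -0.13 to -0.018. Scaling alternatives shifted the median of all genes by at most 0.026 in size.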

Other observations

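Genes that act before AP-1 and EGR genes differed with fructose in both directions. Of 9 measured SRF, TCF and CREB factors, 7 were higher with fructose in KO (median 0.25) and 5 in WT (median 0.18). Crem, a CREB-family gene, was 1.75-fold higher in KO and 2.01-fold in WT. Elk4, an SRF partner of the ETS family, differed by 0.50 in KO and 0.84 in WT, whereas its relative Elk1 differed by -0.18 in KO and -0.62 in WT. Srf itself differed by 0.35 in KO and 0.23 in WT.

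In the MAP kinase cascade, 12 of 17 listed genes were measured and 11 were above background in each comparison. With fructose, 4 of 11 were higher in KO (median -0.031) and 5 of 11 in WT (median -0.057). Mapk8 (JNK1), which phosphorylates JUN, differed by 0.40 in KO and 0.52 in WT, and Map2k4, a kinase that activates JNK, by -0.25 in KO and -0.88 in WT. The ZFP36 relatives Zfp36l1 and Zfp36l2 differed with fructose by -0.068 and 0.13 in KO and by -0.16 and -0.11 in WT, so neither shared the large difference of Zfp36.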
